A study of Mus musculus with 12 samples.

Results

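The comparison described here is that of islets from mice with a beta-cell-selective Sirt3 knockout and from wild type mice, after long high fat feeding. The 3 libraries titled HFD-fed KO1 to KO3 (HFD KO) were set against the 3 titled HFD-fed WT1 to WT3 (HFD WT), across all genes. They are 6 of the 12 libraries of the study. The members were chosen by these titles alone. All animals were male C57BL/6 mice, and total RNA came from islets freed with collagenase P and purified on a Histopaque gradient. The high fat diet took 60% of its calories from fat and was given for 36 weeks. The remaining 6 libraries, 3 wild type and 3 knockout on a standard diet with 6.2% fat, entered the fit only to share the estimate of spread and to give the same contrast under the other diet. HFD WT animals had 4 weeks of standard food before high fat feeding, HFD KO 1 and HFD KO 3 had 6 weeks and HFD KO 2 had 5 weeks, so genotype and the length of this period cannot be told apart. All libraries were labelled 40 weeks of age, whereas the stated periods add up to 40 weeks for HFD WT, 42 for HFD KO 1 and HFD KO 3 and 41 for HFD KO 2. The promoter that drove the deletion and the deleted exons were not in the sources used here. Also not given were whether wild type animals carried a transgene with that promoter and whether a library is 1 animal. The p-values therefore measure the spread between these libraries.

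SIRT3 is the main deacetylase of the mitochondrial matrix. It uses NAD to remove acetyl groups from enzymes of fuel oxidation and antioxidant defence, so its loss is studied in beta cells, which couple mitochondrial metabolism to insulin release. Beta cells also carry the prolactin receptor, through which prolactin and placental lactogen act on the kinase JAK2 and the transcription factor STAT5. In pregnancy this pathway switches on a set of islet genes that includes Tph1, the enzyme that starts serotonin synthesis. Long high fat feeding loads islets with lipid and raises the demand for insulin.

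Total counts of the 12 libraries lay between 16037709 and 20864920. In the 6 high fat libraries Ins1 and Ins2 together took 24.4% to 33.5% of counts and mitochondrially encoded genes 1.45% to 2.20%, and the correlation of log2 CPM (counts brought to a common library total, TMM-scaled throughout) between pairs of libraries lay from 0.898 to 0.967. The markers of islets were present: the summed level of 14 beta cell markers was 278900 to 409600 CPM in HFD WT and 248800 to 368100 CPM in HFD KO. Sirt3 (ENSMUSG00000025486, chr7:140863666-140882309, minus strand) was at 11.4, 9.30 and 11.8 CPM in HFD WT and 7.85, 11.5 and 6.21 CPM in HFD KO (log2 fold change −0.35, SE 0.22, adjusted p = 0.363). The library labelled HFD KO 2 lay inside the wild type range and the other knockout libraries lay below it, and HFD KO 2 stands below for the library so labelled. The counts cover the whole gene in every islet cell type, so it checks the label only weakly, and calls are given below with HFD KO 2 left out where that changed them.

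In all, 1189 of 16076 genes passed an adjusted p of 0.05 (7.40% of those tested), 627 higher in HFD KO (3.90%) and 562 lower (3.50%). These shares are the background for the counts of called members in every gene list below. The share of calls that were higher was 52.7%, and it was 65.0% with limma on log2(FPKM + 1), where 690 were higher and 372 lower. In 1187 of the 1189 the 3 knockout and 3 wild type libraries did not overlap, as was so for 24.5% of all genes tested. The increases were larger than the decreases: 416 genes were more than 2-fold higher and 257 more than 2-fold lower, while 136 were more than 8-fold higher and 6 more than 8-fold lower. Of the genes called, 1077 were protein-coding, 50 were long intergenic RNAs and 25 antisense RNAs. Blocking the high fat libraries by replicate number, 1969 genes were called, 910 higher and 1059 lower, and 1182 of the 1189 were among them. This replicate block was not planned. It was chosen after same-numbered high fat libraries were seen to deviate together, so the calls it adds are a description only. The planned block, in both diets, gave 1291 genes, 624 higher and 667 lower. With no block and HFD KO 2 left out, 759 were called, 482 higher and 277 lower, 701 of them among the 1189. The count also moved by over 1.5 times without HFD WT 1 (744), HFD WT 3 (524), HFD KO 1 (519) and HFD KO 3 (2899).

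Promoters were searched for the letters TTCNNNGAA, the palindromic site that STAT5 dimers are known to bind, in the window from 250 bases before to 50 bases after each RefSeq start (GRCm38.p6). Of the 11957 tested genes with such a promoter, 8.39% held the motif. The share was 11.4% of 455 genes called higher (52 genes) and 5.29% of 416 genes called lower (22 genes). Among genes more than 8-fold higher it was 13.2% of 76. The 4 named genes with a match and the smallest p are shown on the gene's strand to let the site be seen in its context, with the motif in capitals. They are Ivd (chr2:118861744-118862043, plus strand), Prok1 (chr3:107238603-107238902, minus strand), Cntn3 (chr6:102464618-102464917, minus strand) and Pde1c (chr6:56369585-56369884, minus strand).
Ivd: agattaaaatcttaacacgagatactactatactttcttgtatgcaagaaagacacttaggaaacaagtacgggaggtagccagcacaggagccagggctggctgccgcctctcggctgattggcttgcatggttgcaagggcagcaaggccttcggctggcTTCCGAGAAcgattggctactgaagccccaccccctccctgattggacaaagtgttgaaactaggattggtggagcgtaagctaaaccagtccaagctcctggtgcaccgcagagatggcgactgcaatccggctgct
Prok1: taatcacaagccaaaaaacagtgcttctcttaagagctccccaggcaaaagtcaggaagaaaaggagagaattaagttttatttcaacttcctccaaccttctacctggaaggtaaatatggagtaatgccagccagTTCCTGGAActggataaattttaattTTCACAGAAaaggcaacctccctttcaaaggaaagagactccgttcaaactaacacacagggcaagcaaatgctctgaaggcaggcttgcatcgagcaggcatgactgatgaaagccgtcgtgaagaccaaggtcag
Cntn3: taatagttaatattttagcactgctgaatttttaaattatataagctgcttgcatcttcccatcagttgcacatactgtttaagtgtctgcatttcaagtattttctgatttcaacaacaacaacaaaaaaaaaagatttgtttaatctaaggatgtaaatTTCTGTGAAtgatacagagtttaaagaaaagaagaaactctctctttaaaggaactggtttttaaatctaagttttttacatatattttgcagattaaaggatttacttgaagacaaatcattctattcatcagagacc
Pde1c: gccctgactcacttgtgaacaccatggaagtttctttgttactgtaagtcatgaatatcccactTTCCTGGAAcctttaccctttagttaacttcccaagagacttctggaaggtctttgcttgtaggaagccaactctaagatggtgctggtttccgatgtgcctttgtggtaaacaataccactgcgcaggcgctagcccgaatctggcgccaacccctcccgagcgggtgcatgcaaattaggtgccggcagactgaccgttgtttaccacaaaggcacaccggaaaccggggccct
Counted from −1 as the last base before the start, the matches began at −88 in Ivd, at −113 and −87 in Prok1, at −89 in Cntn3 and at −186 in Pde1c. The first 3 of these genes were higher in HFD KO and Pde1c was lower, so a match was present among genes of both directions. A match in these letters is a description of the window and not a binding site. The windows of Prok1, Cntn3 and Pde1c lie inside the annotated genes, whose outermost starts are at 107239707, 102573101 and 56569103. Whether islets use the starts shown was not tested. Of 14 lactogen target genes with a promoter in the table, 4 held a match. Of the other motifs, CCAAT (NF-Y) stood in 44.0% of promoter-bearing genes called higher, 43.3% of those called lower and 42.0% of all. The E-box CACGTG stood in 11.4%, 10.8% and 11.1%, the CREB site TGACGTCA in 3.08%, 3.37% and 3.41%, and the sterol response letters TCACNCCAC in 1.54%, 1.44% and 1.41%. Among the 76 promoter-bearing genes higher by over 8-fold, CCAAT stood in 36.8%, CACGTG in 14.5%, TGACGTCA in 0 and TCACNCCAC in 2.63% (2 genes), so in that small group the shares of these motifs also lay away from those of all genes.

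Among receptor genes and signalling proteins of the lactogen pathway the calls fell on the feedback inhibitors Cish and Socs2 and on the receptor gene Prlr. Of 17 tested members, 3 were higher and none lower, against 3.90% and 3.50% of all genes. With the replicate block the list had 3 higher and 1 lower. Cish, an inhibitor of STAT5 signalling that STAT5 itself switches on, was at 2.95, 4.65 and 4.00 CPM in HFD WT and 74.4, 62.9 and 71.7 CPM in HFD KO (log2 fold change 4.17, SE 0.56, adjusted p = 0.00154). Socs2, a second inhibitor of the same kind, went from 10.6, 13.9 and 12.8 CPM to 121, 86.8 and 99.4 CPM (log2 fold change 3.04, SE 0.28, adjusted p = 0.000104). For both genes all knockout libraries lay far above all wild type libraries. Prlr, the prolactin receptor, was at 208, 127 and 193 CPM in HFD WT and 812, 354 and 707 CPM in HFD KO (log2 fold change 1.82, SE 0.30, adjusted p = 0.00378), with HFD KO 2 the lowest of the knockout libraries. The kinase gene Jak2 (log2 fold change −0.41), Stat5a (−0.51), Stat5b (−0.54), the growth hormone receptor gene Ghr (−0.44) and Socs3 (0.88) did not pass (adjusted p from 0.0834 to 0.263).

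Of the targets of this pathway in islets, 12 of 22 tested members were higher and none lower, with a median log2 fold change of 1.52 beside a median of −0.002 over all genes. The list was written with earlier results of these libraries known, so its direction is not independent evidence. Matn2, a matrix protein (ENSMUSG00000022324, chr15:34306677-34436273, plus strand), was at 8.69, 9.36 and 8.06 CPM in HFD WT and 283, 207 and 310.2 CPM in HFD KO (log2 fold change 4.94, SE 0.28, adjusted p = 3.48e-06). Enpp2, which encodes autotaxin, the enzyme that makes lysophosphatidic acid, went from 64.6, 90.8 and 91.7 CPM to 728, 514 and 766 CPM (log2 fold change 3.02, SE 0.23, adjusted p = 3.25e-05). Ivd, the leucine catabolism enzyme whose promoter is shown above, went from 64.6, 59.8 and 71.0 CPM to 293, 258 and 318 CPM (log2 fold change 2.15, SE 0.15, adjusted p = 1.86e-05). In each of these genes every knockout library lay far above every wild type library. Ehhadh, a peroxisomal enzyme of fatty acid oxidation, Chgb, the granule protein chromogranin B, and Wipi1, an autophagy protein, rose by 2.07, 2.16 and 1.48 on the log2 scale. Tnfrsf11b, the decoy receptor osteoprotegerin (2.37), Neb, the giant protein nebulin (5.21), Tph2 (5.49) and Igfals (1.55) completed the calls with Tph1 and Gbp8. The members that act in the cell cycle did not pass: Ccnd1 (−0.63), Ccnd2 (−0.36), Ccnd3 (−0.28), Cdkn1b (−0.22), Cdkn2c (0.39), Foxm1 (0.38), Birc5 (0.65) and Men1 (0.07), with adjusted p from 0.172 to 0.834. All 12 calls were kept in each of the 6 fits without 1 high fat library, with an adjusted p of at most 0.0316.

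Tph1 (ENSMUSG00000040046, chr7:46644641-46672537, minus strand) was at 1.29, 0.894 and 0.972 CPM in HFD WT and 1149, 701 and 825 CPM in HFD KO (log2 fold change 9.71, SE 1.52, adjusted p = 0.00378), with HFD KO 2 the lowest of the knockout libraries. Tph2, a tryptophan hydroxylase best known from neurons, was at 0.804, 0.536 and 0.515 CPM in HFD WT and 33.2, 26.0 and 25.2 CPM in HFD KO (log2 fold change 5.49, SE 0.60, adjusted p = 0.000460). The rest of the serotonin machinery did not pass. Of 11 tested members that make its cofactor, store it, move it, break it down or bind it, none was called, with a median of 0.26, or −0.04 without HFD KO 1. The vesicle transporter gene Slc18a1 was at 17.1, 11.2 and 15.8 CPM in HFD WT and 28.2, 19.4 and 22.1 CPM in HFD KO, groups that did not overlap (log2 fold change 0.67, SE 0.23, adjusted p = 0.0956). With the replicate block its adjusted p was 0.0464.

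Guanylate-binding proteins, large GTPases best known from the response to interferon, formed the list with the next highest median: 5 of 10 tested members were higher and 0 lower (median log2 fold change 1.39). Gbp8 was at 1.07, 2.92 and 1.37 CPM in HFD WT and 97.4, 80.6 and 79.1 CPM in HFD KO (log2 fold change 5.59, SE 0.33, adjusted p = 4.07e-06). Gbp11, annotated as a polymorphic pseudogene, had 1 count in the 3 wild type libraries together and 472 in the 3 knockout libraries, a ratio of 487 with a 95% counting interval of 87.0 to 19280. Gbp9, Gbp10 and Gbp4 rose by 1.52, 3.02 and 1.89 on the log2 scale. Gbp2, Gbp3, Gbp5, Gbp6 and Gbp7 had log2 fold changes of 0.74, 0.29, 0.07, 1.25 and 0.64 and did not pass, except Gbp7 with length offsets (adjusted p = 0.0182). These genes are close copies of each other and Gbp4, Gbp8 and Gbp9 overlap on the annotation, so the split of reads between them is uncertain. With 1 high fat library left out at a time, the call was lost in at least 1 of the 6 fits, with the highest adjusted p in parentheses, for Gbp9 (0.0746), Gbp10 (0.103) and Gbp4 (0.121) without HFD WT 3. Without HFD KO 2, the adjusted p was 0.0569 for Gbp4. In the wider interferon and MHC class I list 1 of 33 tested members passed (median log2 fold change 0.04): the interferon-induced protease Usp18 (1.02, adjusted p = 0.00300). The median of that list turned to −0.06 without HFD KO 2, and the replicate block gave it 2 higher and 0 lower.

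The largest increases were in genes that wild type islets hardly express, which a ranking by fold change favours. Gpr26, an orphan G protein-coupled receptor (ENSMUSG00000040125, chr7:131966460-131994405, plus strand), had no count in any HFD WT library and stood at 29.1, 24.4 and 35.8 CPM in HFD KO, at least 537-fold higher taking 3 counts in the 3 libraries together as the floor. Gstt4, a glutathione transferase, had no count in HFD WT and stood at 9.15, 7.53 and 4.66 CPM in HFD KO, at least 121-fold higher. Lactbl1 (3.77, 5.25 and 6.74 CPM in HFD KO, at least 94.9-fold higher) and the cytochrome P450 gene Cyp2j12 (3.65, 1.59 and 4.22 CPM, at least 58.1-fold) showed the same pattern of silence in every wild type library. So did BC028471 (at least 35.1-fold) and Prl3d1, which encodes placental lactogen I, itself a ligand of the prolactin receptor. Prl3d1 stood at 1.79, 5.46 and 2.38 CPM in HFD KO, at least 54.0-fold higher, and reads of its near-identical neighbours in the prolactin family could have been counted with it. Prok1, the secreted factor prokineticin 1, went from 0, 0.0596 and 0.0572 CPM to 20.3, 15.5 and 15.8 CPM, a ratio of 453 with a counting interval of 125 to 3746.

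Lrrc55, Kcnj5, Syt10 and Gad2 were also among the 12 largest increases. Lrrc55 encodes an auxiliary subunit of large-conductance potassium channels and was at 0.0536, 0.0596 and 0.229 CPM in HFD WT and 47.0, 39.5 and 52.9 CPM in HFD KO, a ratio of 417 (counting interval 191 to 1137). Kcnj5, a potassium channel gated by G proteins, was at 0.0536, 0.0596 and 0.0572 CPM and 16.8, 11.1 and 10.1 CPM, a ratio of 220 (75.0 to 1070). Syt10, a calcium sensor of secretory vesicles, was at 0, 0.0596 and 0 CPM and 8.84, 3.94 and 7.62 CPM, a ratio of 368 (65.7 to 14590). Gad2, which encodes a GABA-synthesising glutamate decarboxylase, went from 1 count in the wild type libraries together to 10.1, 2.0 and 5.38 CPM, with HFD KO 2 the lowest. The adjusted p of these 12, chosen with predicted genes and pseudogenes such as Gbp11 left out, lay between 5.79e-05 and 0.00486, and each kept its call in all 6 fits without 1 high fat library. Strand was not given in the sources used here, so reads of Gpr26 and Fgfr2, of Lrrc55 and 2 predicted genes, and of Prok1 and A630076J17Rik, which overlap on opposite strands, cannot be told apart. In the plot of the largest changes the wild type libraries lie below all knockout libraries in each gene that rose. The rule that chose these genes required this, so it is not a finding.

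**Figure D1:**
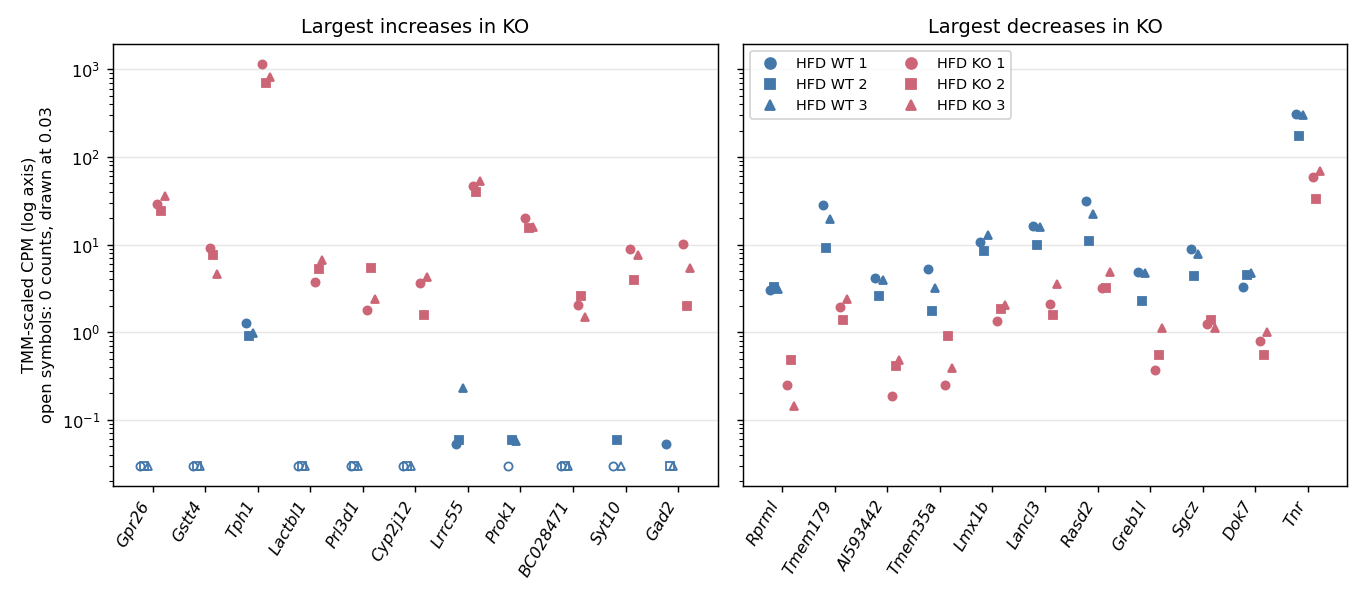
TMM-scaled CPM on a log axis, by library, for the 11 genes with the largest increase (left) and decrease (right) among genes with a mean of at least 2 CPM, predicted genes and pseudogenes left out. Blue marks the 3 HFD WT and red the 3 HFD KO libraries, and open symbols mark 0 counts drawn at 0.03. Only called genes without overlap between groups could enter, so the groups are separate by choice.

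The genes that follow were chosen after their values were seen, as increases from a low level in HFD WT, so their values are a description only. Cldn8, a tight junction protein, was at 1.77, 11.2 and 3.83 CPM in HFD WT and 554, 441 and 432 CPM in HFD KO (log2 fold change 6.42, SE 0.81, adjusted p = 0.00112). Sftpd, the surfactant protein D of lung and mucosa, went from 1.45, 4.41 and 2.34 CPM to 461, 268 and 291 CPM (log2 fold change 6.96, SE 0.83, adjusted p = 0.000838). Dnah8, an axonemal dynein, went from 0.858, 2.56 and 1.37 CPM to 168, 121 and 203 CPM (log2 fold change 6.69, SE 0.62, adjusted p = 0.000177). In all 3 genes the highest wild type library lay far below the lowest knockout library. Rerg, a small GTPase, rose by 5.45, and the transcription factor genes Sox11 and Spic, with 1 and 9 counts in HFD WT, rose to 3.21, 2.0 and 3.73 CPM and 11.2, 8.77 and 6.45 CPM. Cym, which encodes the stomach protease chymosin, had 2 counts in HFD WT and 138 in HFD KO.

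Receptors for growth factors were changed in both directions. Gfra3, the co-receptor for artemin, was at 2.79, 1.91 and 2.46 CPM in HFD WT and 92.8, 73.0 and 90.7 CPM in HFD KO (log2 fold change 5.16, SE 0.30, adjusted p = 3.48e-06), and Ngfr, the low-affinity neurotrophin receptor, was at 0.643, 2.15 and 1.77 CPM and 7.66, 11.4 and 14.1 CPM (log2 fold change 2.86, SE 0.37, adjusted p = 0.000968). Ret, the receptor tyrosine kinase through which the GDNF family of co-receptors signals, was lower (log2 fold change −1.47, SE 0.29, adjusted p = 0.0111), as was the Wnt receptor Fzd7 (log2 fold change −1.30, SE 0.17, adjusted p = 0.000847). Of 31 tested members of the list, 2 were higher and 5 lower, against 3.90% higher and 3.50% lower among all genes. The other decreases were Gfra1 (−0.94), Rspo4 (−0.96) and Lrp5 (−1.06). The call was lost in at least 1 of the 6 fits without 1 high fat library, with the highest adjusted p in parentheses, for Ret (0.0675), Rspo4 (0.0565) and Lrp5 (0.168) without HFD KO 1, and for Gfra1 (0.131) without HFD WT 3. The adjusted p without HFD KO 2 was 0.0969 for Gfra1 and 0.138 for Lrp5.

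Among secreted factors other than the islet hormones 5 of 41 tested members were higher and 2 lower (median log2 fold change 0.29), against 3.90% higher and 3.50% lower among all genes. The list had 3 higher and 1 lower without HFD KO 2, and 2 higher and 2 lower under the standard diet. Penk, the precursor of enkephalins, was at 0.429, 2.62 and 1.20 CPM in HFD WT and 15.6, 11.5 and 13.2 CPM in HFD KO (log2 fold change 3.25, SE 0.47, adjusted p = 0.00189). Nucb2, the precursor of nesfatin, went from 226, 168 and 188 CPM to 556, 363 and 413 CPM (log2 fold change 1.19, SE 0.19, adjusted p = 0.00309). Both showed no overlap between groups. Fgf1, a fibroblast growth factor, was the clearest decrease, from 27.9, 22.5 and 31.6 CPM to 8.34, 6.70 and 8.15 CPM (log2 fold change −1.82, SE 0.19, adjusted p = 0.000278). Nts, the precursor of neurotensin (4 counts in HFD WT and 56 in HFD KO), and Npy, neuropeptide Y (1.52), were called higher and Pgf, placental growth factor (−0.90), lower. With length offsets Npy had no call (adjusted p = 0.0707). Leaving out 1 high fat library at a time ended the call (highest adjusted p in parentheses) for Nts (0.114), Npy (0.167) and Pgf (0.175) without HFD WT 3. Leaving out HFD KO 2 alone gave an adjusted p of 0.0697 for Nts, 0.161 for Npy and 0.108 for Pgf.

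The islet hormone genes themselves did not pass. Ins1 was at 90450, 63560 and 69070 CPM in HFD WT and 124900, 131700 and 76930 CPM in HFD KO (log2 fold change 0.58, SE 0.30, adjusted p = 0.265), and Ins2 at 284400, 193500 and 215300 CPM and 207700, 199400 and 150400 CPM (log2 fold change −0.31, SE 0.29, adjusted p = 0.555), with the groups overlapping for both. Gcg, glucagon, was at 18250, 22320 and 18560 CPM and 29910, 33570 and 12350 CPM (adjusted p = 0.549), with HFD KO 3 below and the other knockout libraries above the wild type range. Sst, somatostatin, was at 2282, 3147 and 2364 CPM and 2557, 3811 and 1672 CPM, and Ppy, pancreatic polypeptide, at 1024, 3174 and 2043 CPM and 1088, 4341 and 1262 CPM (adjusted p = 0.946 and 0.944). Of 13 proinsulin-processing and amylin genes only Pcsk1, the convertase that makes the first cut of proinsulin, was called: it went from 629, 418 and 517 CPM to 1792, 932 and 1233 CPM (log2 fold change 1.34, SE 0.25, adjusted p = 0.00717). Among 18 granins and granule membrane proteins Chgb was higher, from 1725, 1247 and 1628 CPM to 7764, 5314 and 7520 CPM (log2 fold change 2.16, SE 0.26, adjusted p = 0.000556), and the zinc transporter Slc30a8, which loads zinc into insulin granules, lower (log2 fold change −0.87, SE 0.19, adjusted p = 0.0157). With the replicate block the granule list had 2 higher and 5 lower, and with length offsets 2 higher and 3 lower. The block gave the processing list 2 higher and 1 lower.

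Most of the beta cell markers and transcription factors that passed were lower. Ucn3, urocortin 3, a maturity marker, was at 692, 472 and 589.7 CPM in HFD WT and 253, 274 and 272 CPM in HFD KO (log2 fold change −1.13, SE 0.19, adjusted p = 0.00458), and Gjd2, the connexin that couples beta cells, fell by 0.84 on the log2 scale (adjusted p = 0.0296). Slc2a2, the glucose transporter GLUT2, was at 792, 496 and 786 CPM and 366, 233 and 408 CPM. The groups did not overlap, and with an adjusted p of 0.0521 it did not pass. Its adjusted p was 0.0455 with length offsets and 0.0152 with the replicate block, which was chosen from these data. Mafa, a transcription factor of mature beta cells, was at 559, 504 and 584 CPM and 332, 381 and 503 CPM, also without overlap (log2 fold change −0.44, SE 0.18, adjusted p = 0.169). In the beta cell marker list 3 of 14 members were lower and 1 higher (median −0.49), with 1 higher and 6 lower under the replicate block and 0 higher and 1 lower without HFD KO 2. In the transcription factor list 2 of 35 tested members were higher and 4 lower, against 3.90% and 3.50% of all genes. Its median log2 fold change was −0.41, and with the replicate block it had 2 higher and 8 lower. Foxa2 (−0.81, SE 0.16, adjusted p = 0.0106) and Insm1 (−0.84, SE 0.17, adjusted p = 0.0109), factors of endocrine identity, and Foxo1 (−0.76, SE 0.17, adjusted p = 0.0205), the factor that insulin signalling restrains, were lower. Ovol2, an epithelial factor, was higher, from 4.4, 4.35 and 5.03 CPM to 24.0, 20.7 and 22.0 CPM (log2 fold change 2.27, SE 0.24, adjusted p = 0.000278). Pdx1 (−0.38) and Nkx6-1 (−0.77) did not pass (adjusted p = 0.132 and 0.0920, or 0.101 and 0.0465 with the replicate block). In at least 1 of the 6 fits without 1 high fat library, no call was made (highest adjusted p in parentheses) for Gjd2 (0.135), Slc30a8 (0.0900) and Foxa2 (0.0525) without HFD WT 3, and for Insm1 (0.0660) and Foxo1 (0.107) without HFD KO 1. The fit without HFD KO 2 made no call for Gjd2, Slc30a8 and Foxo1.

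Of 23 tested genes that mark cells losing beta cell identity 1 was higher and none lower (median log2 fold change 0.16), a median that was −0.05 with length offsets. The 1 call was Serpina7, thyroxine-binding globulin, at 16.6, 14.1 and 13.2 CPM in HFD WT and 99.2, 64.9 and 33.8 CPM in HFD KO (log2 fold change 2.17, SE 0.33, adjusted p = 0.00238). Of the genes that make, break down or sense GABA, 1 of 14 tested members was higher and 1 lower (median log2 fold change 0.15). Over all genes 3.90% were higher and 3.50% lower. Gad2 was the increase, and Gad1, which encodes the other glutamate decarboxylase, the decrease (log2 fold change −1.03, SE 0.20, adjusted p = 0.0108). Calls also depended on single libraries, with the highest adjusted p in parentheses, for Gad1 (0.0617) without HFD WT 3.

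Ion channels of the beta cell membrane were lower more often than higher: 1 of 35 tested members was higher and 8 lower (median log2 fold change −0.44), against 3.90% higher and 3.50% lower among all genes. Trpm5, a cation channel that opens on a rise of calcium, was at 240.4, 158 and 195 CPM in HFD WT and 60.9, 95.1 and 51.6 CPM in HFD KO (log2 fold change −1.52, SE 0.25, adjusted p = 0.00370). Trpc4, a further cation channel, went from 15, 7.75 and 13.6 CPM to 1.92, 2.07 and 3.88 CPM (log2 fold change −2.19, SE 0.36, adjusted p = 0.00402). Cacna1c, the pore of the L-type calcium channel (−1.24, SE 0.24, adjusted p = 0.00874), and its auxiliary subunit Cacna2d1 (−1.05, SE 0.19, adjusted p = 0.00712) were both lower. The sulfonylurea receptor gene Abcc8 (−0.77) and the potassium channels Kcnh2 (−0.96) and Kcnk3 (−0.62) were lower too, whereas Kcnj11, the pore partner of Abcc8, did not pass (−0.53, adjusted p = 0.0894). In the fit without HFD KO 2 the list had 2 higher and 5 lower. With 1 high fat library left out at a time, the call was lost in at least 1 of the 6 fits, with the highest adjusted p in parentheses, for Abcc8 (0.125) and Kcnh2 (0.0619) without HFD KO 1, and for Kcnk3 (0.0856) without HFD WT 3. Without HFD KO 2, the adjusted p was 0.0816 for Abcc8 and 0.0684 for Kcnk3.

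Of the genes that store and move intracellular calcium, 0 of 29 tested members were higher and 4 lower (median log2 fold change −0.23). Itpr2, an inositol trisphosphate receptor that releases calcium from the endoplasmic reticulum, was at 58.3, 53.6 and 61.9 CPM in HFD WT and 14.5, 19 and 15.7 CPM in HFD KO (log2 fold change −1.82, SE 0.15, adjusted p = 5.79e-05). Itpr3, its relative (−1.26, SE 0.25, adjusted p = 0.0105), Atp2a2, the SERCA2 pump that refills the store (−1.21, SE 0.25, adjusted p = 0.0138), and Atp2b4, a plasma membrane calcium pump (−0.95, SE 0.25, adjusted p = 0.0456), were lower too. With length offsets their adjusted p was 0.000109, 0.0273, 0.00507 and 0.0231. The call was lost in at least 1 of the 6 fits without 1 high fat library, with the highest adjusted p in parentheses, for Itpr3 (0.0643) and Atp2a2 (0.0790) without HFD KO 1, and for Atp2b4 (0.146) without HFD WT 3. The adjusted p without HFD KO 2 was 0.122 for Atp2b4.

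In the exocytosis machinery the calls were mixed, beside shares of 3.90% higher and 3.50% lower among all genes. Of 29 SNARE and priming genes 2 were higher, Rims1 (1.96) and Stxbp5l (1.27), and 4 lower: the priming factor Unc13a (−0.58), the calcium sensor Doc2b (−1.48), Cadps (−0.74) and Cadps2 (−0.61). Of 16 synaptotagmins, Syt10 and Syt5 (0.80) were higher, and Syt2 (−1.26) and Syt7 (−0.84), a sensor of slow insulin release, lower. Length offsets ended the call of Syt5 (adjusted p = 0.0625). Leaving out 1 high fat library at a time ended the call (highest adjusted p in parentheses) for Rims1 (0.0683), Doc2b (0.155), Cadps (0.188), Syt5 (0.128) and Syt7 (0.123) without HFD WT 3, and for Stxbp5l (0.202), Unc13a (0.133) and Cadps2 (0.150) without HFD KO 1. No call was made without HFD KO 2 for Unc13a, Doc2b, Cadps, Cadps2 and Syt7. Of 32 genes of cyclic AMP signalling, Crem, a repressor and activator of cyclic AMP-driven transcription, rose from 29.2, 16.1 and 20.4 CPM to 85.7, 74.5 and 52.1 CPM (log2 fold change 1.69, SE 0.26, adjusted p = 0.00274), Pde8b rose (1.89, SE 0.35, adjusted p = 0.00712) and Pde1c fell (−1.21, SE 0.15, adjusted p = 0.000654), both of them phosphodiesterases. The replicate block gave that list 3 higher and 4 lower.

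Receptors that tune insulin secretion split by gene: 3 of 34 tested members were higher and 4 lower (median log2 fold change −0.26). Among all genes 3.90% were higher and 3.50% lower. Ffar1, the receptor for long-chain fatty acids, was at 206, 146 and 207 CPM in HFD WT and 74.6, 61.0 and 86.1 CPM in HFD KO (log2 fold change −1.33, SE 0.18, adjusted p = 0.00112). Adora1, the adenosine A1 receptor, which restrains secretion, went from 20.5, 19.7 and 24.4 CPM to 3.65, 2.90 and 7.91 CPM (log2 fold change −2.14, SE 0.36, adjusted p = 0.00440). Vipr1 (−1.14, SE 0.18, adjusted p = 0.00338) and the short-chain fatty acid receptor Ffar3 (−1.44, SE 0.25, adjusted p = 0.00546) were also lower. The lipid receptor Gpr119 (0.85, SE 0.13, adjusted p = 0.00299), the oxytocin receptor Oxtr (1.34, SE 0.26, adjusted p = 0.00915) and Ffar2 (0.77, SE 0.15, adjusted p = 0.0106) were higher, and the incretin receptor genes Glp1r (−0.54) and Gipr (−0.39) did not pass. In at least 1 of the 6 fits without 1 high fat library, no call was made (highest adjusted p in parentheses) for Ffar2 (0.0565) without HFD KO 1. Of the receptor genes chosen after their values were seen, the cannabinoid receptor Cnr1 (−2.10, SE 0.35, adjusted p = 0.00414) and Vipr2 (−1.86, SE 0.42, adjusted p = 0.0209) were lower. Calls also depended on single libraries, with the highest adjusted p in parentheses, for Vipr2 (0.107) without HFD KO 1. With HFD KO 2 left out the adjusted p was 0.0780 for Vipr2.

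Among genes of sterol supply 2 of 34 tested members were higher and 8 lower (median log2 fold change −0.37), against 3.90% higher and 3.50% lower among all genes. Stard4, which carries cholesterol, was at 25.0, 32.7 and 29.5 CPM in HFD WT and 13.7, 13.8 and 15.2 CPM in HFD KO (log2 fold change −1.03, SE 0.15, adjusted p = 0.00190). Srebf2, the transcription factor that drives the genes of this pathway, went from 132, 181 and 170.4 CPM to 51.2, 74.2 and 95.1 CPM (log2 fold change −1.13, SE 0.22, adjusted p = 0.00932). Both kept their calls in each fit without 1 library, and for both the groups did not overlap. Insig1 (−0.88), which holds that factor back, and Hmgcs1 (−0.73) were lower, while Ebp (0.73) and the cholesterol esterifier Soat1 (0.52) were higher. Without HFD KO 2 the list had 2 higher and 6 lower. With 1 high fat library left out at a time, the call was lost in at least 1 of the 6 fits, with the highest adjusted p in parentheses, for Hmgcs1 (0.114) and Soat1 (0.0657) without HFD KO 1. Without HFD KO 2, the adjusted p was 0.0699 for Hmgcs1.

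Fatty acid synthesis had calls in both directions: 3 of 38 tested members were higher and 5 lower (median log2 fold change −0.27). The shares among all genes were 3.90% higher and 3.50% lower. Scd2, a desaturase that makes monounsaturated fatty acids, was at 129, 135 and 143 CPM in HFD WT and 33.9, 37.0 and 66.9 CPM in HFD KO (log2 fold change −1.56, SE 0.22, adjusted p = 0.00176). Srebf1, the transcription factor of lipogenesis (−1.10, SE 0.23, adjusted p = 0.0135), and Acaca, acetyl-CoA carboxylase (−0.85, SE 0.22, adjusted p = 0.0381), were lower, and Fasn did not pass (−0.96, adjusted p = 0.0795). Elovl5 (−0.65) and Acsl3 (−0.90) were also lower, and the acyl-CoA synthetases Acsl4 (0.92, SE 0.16, adjusted p = 0.00483) and Acsl5 (0.65, SE 0.12, adjusted p = 0.00931) and the malic enzyme Me1 were higher. In the fit without HFD KO 2 the list had 2 higher and 1 lower. The call was lost in at least 1 of the 6 fits without 1 high fat library, with the highest adjusted p in parentheses, for Srebf1 (0.0779), Acaca (0.154) and Acsl3 (0.180) without HFD KO 1, and for Elovl5 (0.129) without HFD WT 3. With HFD KO 2 left out there was no call for Srebf1, Acaca, Elovl5 and Acsl3.

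In fatty acid oxidation Ehhadh rose from 19.4, 20.1 and 19 CPM to 104, 64.6 and 77.7 CPM (log2 fold change 2.07, SE 0.20, adjusted p = 0.000173), and Ppargc1a, a coactivator of mitochondrial gene expression, fell from 11.3, 7.09 and 11.1 CPM to 4.45, 2.21 and 3.30 CPM (log2 fold change −1.56, SE 0.29, adjusted p = 0.00795). The other 29 tested members did not pass. Among 25 genes of branched-chain amino acid catabolism, Ivd and Bcat1 were higher. Bcat1, the cytosolic transaminase that opens the pathway, was at 2.79, 1.79 and 1.31 CPM in HFD WT and 41.5, 32.2 and 49.3 CPM in HFD KO (log2 fold change 4.38, SE 0.40, adjusted p = 0.000113), while the median of the list was 0.06 and −0.01 with length offsets. Glucose sensing genes split. Txnip, a glucose-induced protein that binds thioredoxin, rose from 384, 283 and 339.6 CPM to 881, 574 and 870.1 CPM (log2 fold change 1.21, SE 0.21, adjusted p = 0.00546). Gpd2, the mitochondrial glycerol phosphate dehydrogenase, fell (−1.51, SE 0.29, adjusted p = 0.00992), and so did Mlxipl, the glucose-responsive factor ChREBP (−0.99, SE 0.22, adjusted p = 0.0213). The glucose sensing list had 3 higher and 3 lower with length offsets and 3 higher and 4 lower with the replicate block. Leaving out 1 high fat library at a time ended the call (highest adjusted p in parentheses) for Mlxipl (0.107) without HFD WT 3.

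Among sirtuins, NAD genes and the list written as SIRT3 substrates there was 1 call, whereas 7.40% of all genes tested passed. Of 7 sirtuin genes none passed, with log2 fold changes from −0.35 to 0.39. Of 18 tested genes that make or use NAD none passed either (median −0.18, or 0.001 without HFD WT 2). Of the 30 tested members of the substrate list 1 passed, Acss2, the cytosolic acetyl-CoA synthetase, at 22.2, 22.0 and 23.1 CPM in HFD WT and 48.4, 36.1 and 44.4 CPM in HFD KO (log2 fold change 0.94, SE 0.12, adjusted p = 0.00112). Acss2 is known as a substrate of SIRT1 and stood in the list by mistake. The known SIRT3 substrate is the mitochondrial enzyme, encoded by Acss1 (−0.15, adjusted p = 0.920). The other 29 members did not pass, and with the replicate block the list had 1 higher and 2 lower. Acss2 overlaps Gss on the opposite strand, and Gss, glutathione synthetase, was also called higher (0.59, SE 0.14, adjusted p = 0.0315). SIRT3 acts on protein acetylation, which these libraries do not measure. In at least 1 of the 6 fits without 1 high fat library, no call was made (highest adjusted p in parentheses) for Gss (0.153) without HFD WT 3. In the fit that left out HFD KO 2 the adjusted p was 0.0997 for Gss.

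Of 33 genes of the tricarboxylic acid cycle, Mdh1 (0.71) and the malic enzyme Me1 (0.73) were higher and the pyruvate dehydrogenase kinase Pdk2 (−0.57) lower, and Me1 had an adjusted p of 0.0520 with the replicate block. Of 29 glycolysis and hypoxia genes, Ddit4 (1.23), an inhibitor of mTORC1, and Bnip3 (0.95), a mitophagy receptor, were higher, and length offsets ended the call of Bnip3 (adjusted p = 0.0733). In one-carbon and glutathione metabolism 4 of 26 were higher, namely Psph (0.96) and Phgdh (0.86) of serine synthesis, the cystine transporter Slc7a11 (1.54) and Gss, and 2 lower, the transsulfuration enzyme Cbs (−1.27, SE 0.21, adjusted p = 0.00431) and Mthfd1 (−0.61). That list, with HFD KO 2 left out, had 1 higher and 1 lower. Odc1, the first enzyme of polyamine synthesis, rose from 75.3, 104 and 76.2 CPM to 239.5, 231 and 239 CPM (log2 fold change 1.47, SE 0.22, adjusted p = 0.00210), and of the amino acid transporters Slc7a7 rose (1.67) and Slc7a2 fell (−1.20). Calls also depended on single libraries, with the highest adjusted p in parentheses, for Mdh1 (0.137), Ddit4 (0.0956), Bnip3 (0.191), Psph (0.103), Phgdh (0.158), Slc7a11 (0.146) and Slc7a2 (0.0650) without HFD WT 3, and for Me1 (0.177), Pdk2 (0.131) and Mthfd1 (0.118) without HFD KO 1. With HFD KO 2 left out there was no call for Mdh1, Me1, Pdk2, Bnip3, Psph, Phgdh, Slc7a11, Mthfd1 and Slc7a2.

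Lists of short, abundant transcripts had positive medians and few calls. Of 75 nuclear-encoded subunits of oxidative phosphorylation 71 had a positive log2 fold change and 3 passed (median 0.51), among them Ndufa4 (1.09, SE 0.25, adjusted p = 0.0208) and Cox5a (0.77). Of 77 cytosolic ribosomal proteins 76 were positive and none passed (median 0.43), and of 77 mitochondrial ribosomal proteins 74 were positive and 1, Mrpl50, passed (median 0.42). The proteasome list had 2 higher of 34 (median 0.48), Psmd6 (0.76) and Psmc6 (0.69). The typical transcript in these lists is short, with median lengths of 763, 712, 1122 and 1029 bp against 1799 bp for all genes. With offsets for gene length the 4 medians were 0.15, 0.12, 0.26 and 0.31, and without HFD KO 2 they were 0.18, 0.03, 0.23 and 0.34. With the replicate block the calls were 11 of 75, 1 of 77, 4 of 77 and 12 of 34, all higher, and with length offsets 4 of 75, 0 of 77, 2 of 77 and 4 of 34. With 1 high fat library left out at a time, the call was lost in at least 1 of the 6 fits, with the highest adjusted p in parentheses, for Ndufa4 (0.110), Cox5a (0.205), Mrpl50 (0.155), Psmd6 (0.142) and Psmc6 (0.200) without HFD WT 3. The fit without HFD KO 2 made no call for Ndufa4, Cox5a, Mrpl50, Psmd6 and Psmc6. The 12 tested mitochondrially encoded mRNAs had no call and a median of 0.07, or −0.09 with length offsets.

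Genes that handle secretory proteins were higher where they passed. Of 46 members of the secretory pathway list, 6 were higher and none lower (median 0.21): Sec11c (1.30, SE 0.27, adjusted p = 0.0136) and Sec11a (0.80), catalytic subunits of signal peptidase, its partner Spcs1 (0.94), Srp14 (1.01) of the signal recognition particle, Tmed3 (0.93) and Sec13 (0.94). Of 30 genes of the unfolded protein response, 4 were higher and none lower (median 0.43, 0.40 with length offsets). Derl3, which pulls misfolded proteins out of the endoplasmic reticulum, was at 19.5, 17.8 and 16.9 CPM in HFD WT and 99.7, 63.2 and 77.7 CPM in HFD KO (log2 fold change 2.15, SE 0.21, adjusted p = 0.000159). Dnajb11 (0.69), Edem1 (0.65) and Sdf2l1 (0.86) completed the calls. With the replicate block the 2 lists had 9 and 11 genes higher and none lower. The call was lost in at least 1 of the 6 fits without 1 high fat library, with the highest adjusted p in parentheses, for Sec11c (0.0850), Sec11a (0.0897), Spcs1 (0.186), Tmed3 (0.117), Srp14 (0.139), Sec13 (0.161), Dnajb11 (0.146) and Sdf2l1 (0.202) without HFD WT 3, and for Edem1 (0.106) without HFD WT 1. No call was made without HFD KO 2 for Sec11a, Spcs1, Srp14, Sec13 and Sdf2l1.

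In the antioxidant list 4 of 32 tested members were higher and 1 lower (median log2 fold change 0.40). Of the 4, 1 was Txnip (1.21, adjusted p = 0.00546), the thioredoxin-binding protein described above, which is not an antioxidant enzyme. Txnrd2, the mitochondrial thioredoxin reductase, was at 8.04, 10.4 and 9.21 CPM in HFD WT and 29.5, 27.4 and 18.2 CPM in HFD KO (log2 fold change 1.44, SE 0.21, adjusted p = 0.00199). Gpx1 (1.38, SE 0.30, adjusted p = 0.0169) and Gpx3 (1.16, SE 0.27, adjusted p = 0.0228), glutathione peroxidases, rose, and Gstm1, a glutathione transferase, fell (−0.93, SE 0.21, adjusted p = 0.0199). Of 36 autophagy genes, Wipi1 and Map1lc3b (0.65) were higher, and of 38 genes of mitochondrial dynamics and quality control, Yme1l1 (0.67) and Bnip3 were higher. No member of the immediate early and heat shock list passed (0 of 24, median 0.37). The replicate block gave the antioxidant list 7 higher and 1 lower, and the mitochondrial list 4 higher and 2 lower. Leaving out 1 high fat library at a time ended the call (highest adjusted p in parentheses) for Gpx1 (0.101), Map1lc3b (0.181) and Yme1l1 (0.103) without HFD WT 3, and for Gpx3 (0.114) and Gstm1 (0.104) without HFD KO 1. With HFD KO 2 left out there was no call for Gpx1, Gpx3, Gstm1 and Map1lc3b.

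Of 31 replication and mitosis genes 29 had a positive log2 fold change and 2 passed, Aurka (0.91, SE 0.18, adjusted p = 0.0118), a mitotic kinase, and E2f1 (0.88, SE 0.21, adjusted p = 0.0262), a factor of the G1 to S transition. Of 26 cyclins, inhibitors and senescence genes, Igfbp5, which binds insulin-like growth factors, rose from 13, 21.4 and 18.4 CPM to 81.0, 92.4 and 181 CPM (log2 fold change 2.75, SE 0.36, adjusted p = 0.00113), Cdkn1a, the inhibitor p21, rose (0.85) and Bmi1, a Polycomb repressor of senescence, fell (−0.66). Insulin and IGF signalling had 4 higher and 3 lower of 31, with Socs2, Akt1 (0.57), Sgk1 (0.65) and Eif4ebp1 (0.73) higher and Foxo1, Rptor (−0.71) and Tsc2 (−0.68) lower. With length offsets Akt1 had no call (adjusted p = 0.132). The replicate block gave the insulin and IGF list 6 higher and 6 lower, and the replication and mitosis list 4 higher and 0 lower. In at least 1 of the 6 fits without 1 high fat library, no call was made (highest adjusted p in parentheses) for Aurka (0.0615), Bmi1 (0.0946) and Eif4ebp1 (0.192) without HFD WT 3, and for E2f1 (0.133), Cdkn1a (0.169), Sgk1 (0.0574), Rptor (0.134) and Tsc2 (0.185) without HFD KO 1, and for Akt1 (0.0632) without HFD WT 1. The fit without HFD KO 2 made no call for Cdkn1a, Bmi1, Eif4ebp1, Rptor and Tsc2. Of the imprinted genes, expressed from 1 parental copy, Peg10 (1.94, SE 0.28, adjusted p = 0.00180) and Meg3 (2.06, SE 0.47, adjusted p = 0.0262) were higher, and Nnat (−1.96, SE 0.34, adjusted p = 0.00494), Zim1 (−1.44) and Usp29 (−1.02) lower, of 21 tested. In the circadian clock list 1 of 19 passed, Tef (−0.80). Of 19 zinc transporters and metallothioneins Slc30a6 was higher (0.69) and Slc30a8 lower. Calls also depended on single libraries, with the highest adjusted p in parentheses, for Meg3 (0.129), Zim1 (0.0753) and Slc30a6 (0.131) without HFD WT 3, and for Usp29 (0.0919) without HFD KO 2, and for Tef (0.194) without HFD KO 1. No call was made without HFD KO 2 for Meg3, Zim1, Usp29, Tef and Slc30a6.

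Adhesion and cytoskeleton genes known from neurons had calls in both directions: 4 of 42 tested members were higher and 8 lower (median log2 fold change −0.38). Of all genes, 3.90% were higher and 3.50% lower. Slit1, a guidance cue, was at 0.107, 0.238 and 0.114 CPM in HFD WT and 8.22, 6.84 and 4.90 CPM in HFD KO (log2 fold change 5.39, SE 0.44, adjusted p = 5.79e-05). Kirrel3, an adhesion protein, went from 0.483, 0.775 and 0.229 CPM to 19.6, 14.6 and 23.1 CPM (log2 fold change 5.26, SE 0.44, adjusted p = 5.79e-05). Cntn3 (2.15) and Lrrtm2 (2.30) rose as well, and for these 4 genes the groups did not overlap. The decreases included Robo1, a Slit receptor, from 41.8, 29.2 and 40.9 CPM to 12.2, 8.08 and 16.4 CPM (log2 fold change −1.60, SE 0.26, adjusted p = 0.00319), Ptprt (−1.66), Cntnap2 (−1.37), Magi2, Csmd2, Ank3 and Ptprd. Of 35 chromatin and transcription regulators none was higher and 7 were lower (median −0.50), led by the histone methyltransferase Kmt2b (−0.74, SE 0.14, adjusted p = 0.00900) and the remodellers Chd3 (−0.66), Smarca4 (−0.63) and Arid1a (−0.61), with Crebbp and Dnmt3a. Their transcripts are long, with a median of 3321 bp, and with length offsets the median was −0.33 with 7 members called lower, not all of them the same genes (adjusted p = 0.0919 for Arid1a). The offsets also ended the call of Ptprd (adjusted p = 0.0646). Without HFD KO 2 the 2 lists had 5 higher and 3 lower, and 0 higher and 1 lower, and with the replicate block 4 higher and 12 lower, and 0 higher and 11 lower. With 1 high fat library left out at a time, the call was lost in at least 1 of the 6 fits, with the highest adjusted p in parentheses, for Magi2 (0.138), Csmd2 (0.141), Kmt2b (0.0507), Chd3 (0.0982) and Crebbp (0.141) without HFD WT 3, and for Ank3 (0.165), Smarca4 (0.147), Arid1a (0.147) and Dnmt3a (0.182) without HFD KO 1, and for Ptprd (0.149) without HFD KO 2. With HFD KO 2 left out there was no call for Magi2, Csmd2, Ank3, Ptprd, Chd3, Smarca4, Arid1a, Crebbp and Dnmt3a. Of 28 splicing factors and nuclear RNAs 3 were higher, the splicing kinases Clk1 (0.71) and Clk4 (0.68) with Meg3, and none without HFD KO 2. The call was lost in at least 1 of the 6 fits without 1 high fat library, with the highest adjusted p in parentheses, for Clk1 (0.129) and Clk4 (0.121) without HFD WT 3. The adjusted p without HFD KO 2 was 0.0928 for Clk1 and 0.0648 for Clk4.

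Gene length went with the fold change across the whole comparison. Over 16076 genes the Spearman correlation of log2 fold change and log2 gene length was −0.307 (genes are not independent replicates, so no p is given), and −0.414 over the 11088 genes with a mean of at least 5 CPM. Of 10 bins of genes ordered by length, in the bin with the shortest transcripts (median 666 bp) the median log2 fold change was 0.35, with 73 genes higher and 8 lower. In the bin with the longest (median 4548 bp) it was −0.26, with 40 higher and 117 lower. Genes called higher had a median length of 1568 bp, and genes called lower 2381 bp. The trend differed between libraries of 1 group. Against the wild type mean the correlation was −0.260 for HFD KO 1, −0.423 for HFD KO 2 and 0.013 for HFD KO 3, and 0.010, −0.155 and 0.2785 for the 3 wild type libraries. HFD KO 3 thus had a value near 0, and the correlation over all genes was −0.149 without HFD KO 2 and −0.379 without HFD KO 3. Within the knockout group the correlation was −0.314 for HFD KO 2 against HFD KO 1 and 0.462 for HFD KO 3 against HFD KO 2. Between genotypes the 9 pairs ran from −0.443 to 0.0996.

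**Figure D2:**
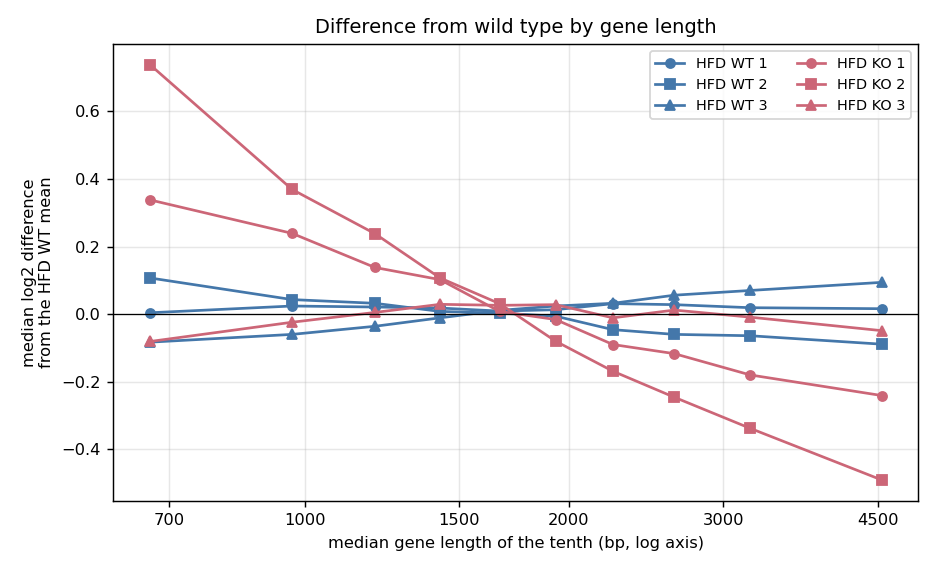
Median log2 difference of each high fat library from the HFD WT mean, in 10 bins of genes ordered by transcript length (log axis, bp). HFD KO 1 and HFD KO 2 fall from short to long genes, HFD KO 3 stays near 0, and the wild type libraries spread to both sides.

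With a smooth offset for gene length in each library, the correlation was −0.0293 and 1414 genes were called, 744 higher and 670 lower, of which 1112 were among the 1189. In the shortest bin 53 were then higher and 30 lower, and in the longest 74 higher and 134 lower. The medians of lactogen targets and guanylate-binding proteins were 1.55 and 1.52 with the offsets, close to those without. The plot of list medians sets both values side by side.

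**Figure D3:**
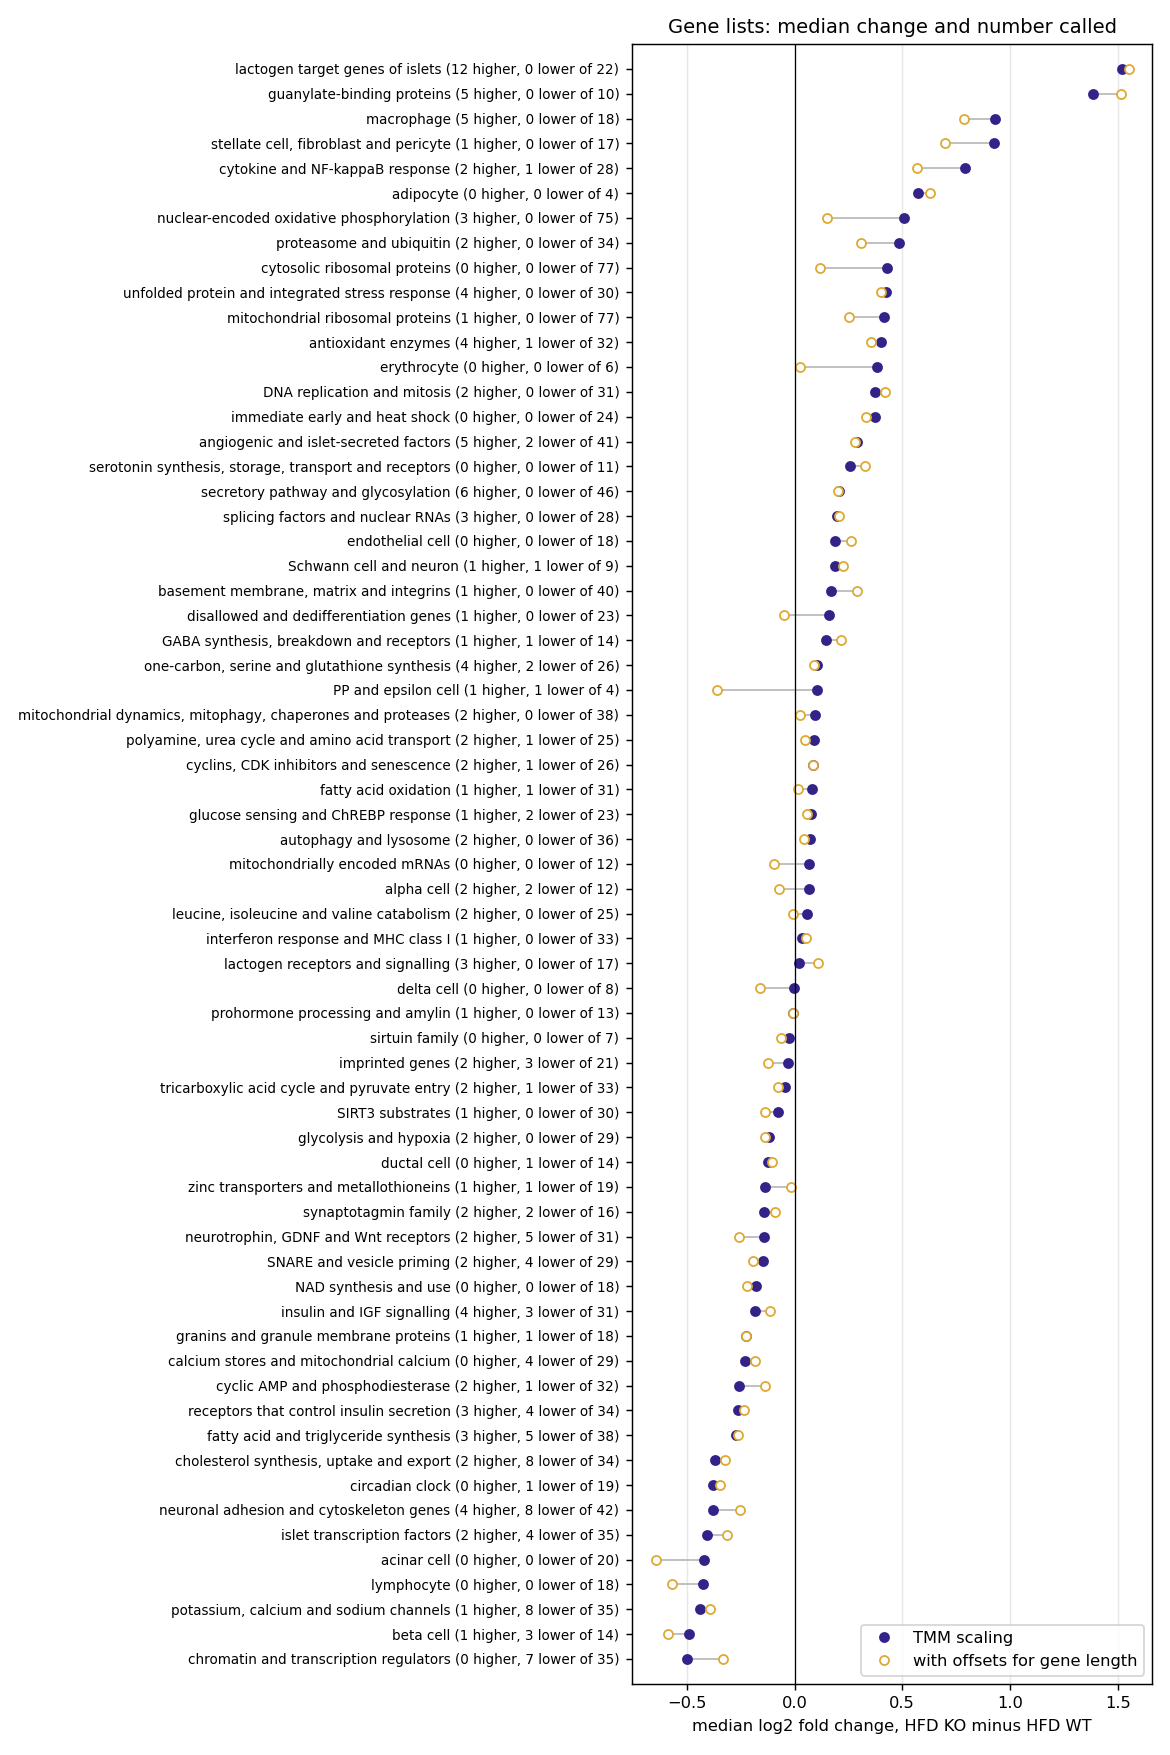
Median log2 fold change, HFD KO minus HFD WT, for each of the 65 gene lists, with TMM scaling (filled) and with offsets for gene length (open). Labels give the number of members called higher and lower with TMM scaling, and the top lists, lactogen targets and guanylate-binding proteins, hold their place under both.

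The time on standard food before high fat feeding differed within the knockout group only for HFD KO 2, at 5 weeks against 6. Over the genes called higher the median log2 difference from the wild type mean was 1.5 in HFD KO 1, 1.40 in HFD KO 2 and 1.30 in HFD KO 3. Over the genes called lower it was −1.0, −1.10 and −0.73. The knockout library nearest to the wild type mean was HFD KO 3 in 47.7% of genes called higher and 74.9% of genes called lower, against 45.1% and 13.7% for HFD KO 2. HFD KO 2 was the farthest from the wild type mean in 54.4% of genes called lower and 24.1% of genes called higher. These genes were called from the same libraries, and with 1 library at 5 weeks an effect of this time was not tested.

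Markers of other cell types were checked because islet preparations carry exocrine, vascular and immune cells, and fewer cells of a type and less RNA per cell cannot be told apart in these samples. All 18 macrophage markers had a positive log2 fold change and 5 passed: Trem2 (1.5, 0.835 and 0.858 CPM in HFD WT and 6.92, 3.94 and 4.12 CPM in HFD KO), Mrc1 (1.02, 2.09 and 1.60 and 8.16, 4.35 and 12.7 CPM), C1qb, Fcer1g and C1qc. The summed level of the 18 markers was 212, 370.5 and 250.4 CPM in HFD WT and 459, 516 and 438 CPM in HFD KO, without overlap. With the replicate block the list had 8 higher and 0 lower, and with length offsets 3 higher and 0 lower, without a call for Fcer1g (adjusted p = 0.0889) and C1qc (0.0539). Cytokine genes had a positive median (0.79), and 22 of 28 had a positive log2 fold change. Their sums were 769.5, 909 and 852 CPM in HFD WT and 554, 587 and 701 CPM in HFD KO. The chemokine Ccl2 (2.45, SE 0.66, adjusted p = 0.0459) and Tnfrsf1a (0.55) were higher. Il1r1, the interleukin-1 receptor of beta cells, was lower (−1.29, SE 0.26, adjusted p = 0.0109). Il1r1 alone gave 524.5, 352.5 and 517.4 CPM of the HFD WT sums and 197.7, 120.4 and 250.1 CPM of the HFD KO sums. The lower sums in HFD KO therefore do not describe the list as a whole. With length offsets Tnfrsf1a had no call (log2 fold change 0.37, adjusted p = 0.256). The part of macrophages in the increases described above was not tested. Leaving out 1 high fat library at a time ended the call (highest adjusted p in parentheses) for Fcer1g (0.121) and Ccl2 (0.174) without HFD WT 3, and for C1qc (0.114) and Il1r1 (0.0517) without HFD KO 1, and for Tnfrsf1a (0.0754) without HFD WT 1. Leaving out HFD KO 2 alone gave an adjusted p of 0.0801 for Fcer1g and 0.125 for Ccl2.

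Stellate, fibroblast and pericyte markers had a median of 0.93 with 1 of 17 called, Mgp (0.93), and sums of 271, 444 and 368 CPM in HFD WT and 523, 371 and 822 CPM in HFD KO, which overlapped. With length offsets none of the 17 was called (adjusted p = 0.164 for Mgp), and with the replicate block 2 higher and 0 lower. Of 40 matrix and integrin genes only Col5a2 passed, from 1.88, 5.19 and 2.97 CPM to 16.1, 10.9 and 20.4 CPM (log2 fold change 2.25, SE 0.35, adjusted p = 0.00295). Acinar enzymes, the main product of the exocrine pancreas, had a negative median (−0.42) and no call of 20, and their sums were 25650, 38880 and 41640 CPM and 20990, 27760 and 26290 CPM, overlapping. Lymphocyte markers varied widely within HFD WT, with sums of 98.3, 3284 and 913 CPM against 1825, 2014 and 1440 CPM in HFD KO, and none of 18 passed. Their median of −0.43 was 1.25 without HFD WT 2. Ductal markers had 1 call of 14, the claudin Cldn4, which fell from 84.9, 134 and 105 CPM to 46.3, 49.5 and 42.3 CPM (log2 fold change −1.23, SE 0.21, adjusted p = 0.00454). Endothelial (0 of 18, or 1 with the replicate block, Cldn5), adipocyte (0 of 4 tested) and erythrocyte markers (0 of 6) had no call, and in the Schwann cell and neuron list Ngfr rose and Th, tyrosine hydroxylase, fell (−1.33). Among non-beta endocrine lists, alpha cells had 2 higher and 2 lower of 12, led by Ttyh1, from 10.7, 12 and 11.2 CPM to 128, 60.0 and 60.9 CPM (log2 fold change 2.88, SE 0.30, adjusted p = 0.000247), and Dpp4, which was lower (−1.15, SE 0.15, adjusted p = 0.000796). Of the 4 PP and epsilon cell genes tested Sertm1 was higher (2.72, SE 0.33, adjusted p = 0.000643) and Etv1 lower (−0.92, SE 0.17, adjusted p = 0.00734), and of 8 delta cell genes none passed, or 1, lower, with length offsets and with the replicate block. The plot of summed markers shows overlap between genotypes for all types but macrophages and adipocytes. The adipocyte sum was 34.21, 22.47 and 37.45 CPM in HFD WT and 48.27, 44.4 and 41.42 CPM in HFD KO. Fabp4 alone gave 21.07, 13.29 and 25.16 CPM and 38.75, 35.01 and 29.44 CPM of it (adjusted p = 0.13). Of the 4 tested adipocyte markers 3 had a positive log2 fold change, and Pparg a negative value (−0.25). In at least 1 of the 6 fits without 1 high fat library, no call was made (highest adjusted p in parentheses) for Mgp (0.150) and Th (0.0910) without HFD KO 1. In the fit that left out HFD KO 2 the adjusted p was 0.115 for Mgp and 0.0681 for Th.

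**Figure D4:**
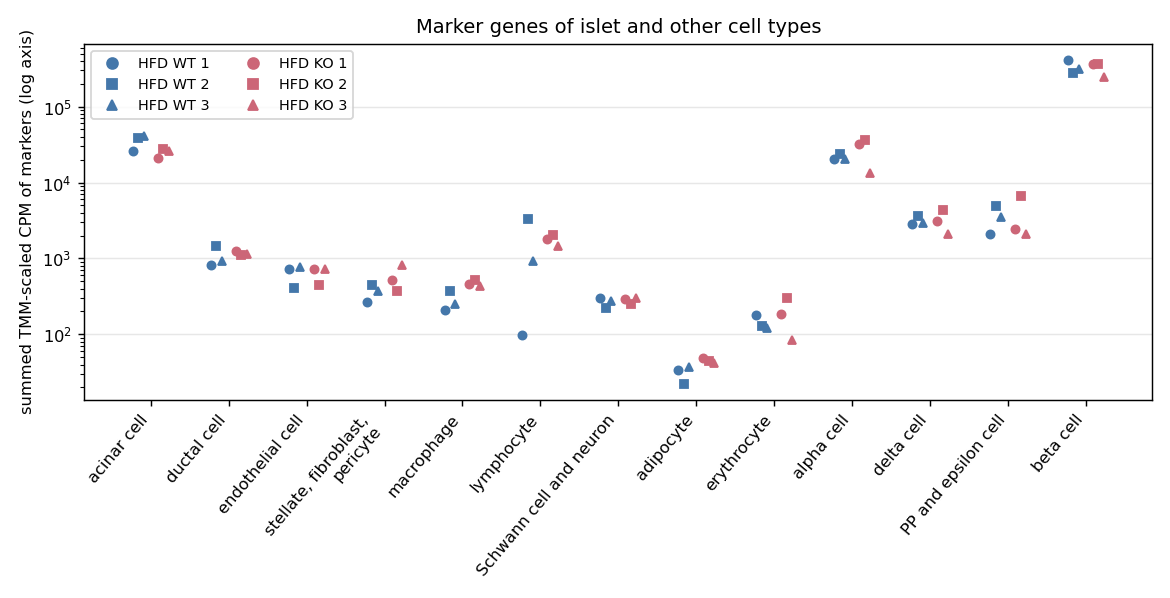
Summed TMM-scaled CPM of the marker genes of 13 cell types (log axis), by library, with HFD WT in blue and HFD KO in red. The groups are separate for the sums of macrophage and adipocyte markers, the second of them mostly Fabp4, and overlap for the other types.

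The largest decreases were smaller than the largest increases. They fell on genes that wild type islets express, which the minimum of 2 CPM in the higher group required. Tnr, the matrix protein tenascin R, was at 309, 175 and 299.7 CPM in HFD WT and 58.6, 32.8 and 68.4 CPM in HFD KO (log2 fold change −2.29, SE 0.31, adjusted p = 0.00133). Rprml had 167 counts in HFD WT and 14 in HFD KO, a ratio of 11.6 with a counting interval of 6.70 to 21.6 (log2 fold change −3.45, SE 0.50, adjusted p = 0.00186). Tmem179, a membrane protein, went from 28.3, 9.18 and 19.8 CPM to 1.92, 1.38 and 2.38 CPM (log2 fold change −3.32, SE 0.41, adjusted p = 0.000725). For Tnr and Tmem179 HFD WT 2 was the lowest wild type library, above all knockout libraries as the rule of choice required. Lmx1b, a homeobox factor of serotonergic neurons, fell from 10.8, 8.46 and 12.9 CPM to 1.36, 1.86 and 2.04 CPM (log2 fold change −2.60, SE 0.24, adjusted p = 0.000111). Lancl3 (−2.53), the small GTPase Rasd2 (−2.53), Greb1l (−2.52), Sgcz (−2.50), Dok7 (−2.38), AI593442 (−3.26) and Tmem35a (−2.74) completed the 11 largest. Calls also depended on single libraries, with the highest adjusted p in parentheses, for Rasd2 (0.0659) and Greb1l (0.113) without HFD KO 1. With HFD KO 2 left out the adjusted p was 0.0578 for Rasd2 and 0.0856 for Greb1l. Of genes chosen after their values were seen, the developmental factor Eya1 (−2.15, SE 0.22, adjusted p = 0.000247), the integrin Itgb8 (−1.92, SE 0.30, adjusted p = 0.00297), the ephrin receptor Epha7 (−2.0, SE 0.36, adjusted p = 0.00670) and the adhesion protein Nectin1 (−1.99, SE 0.21, adjusted p = 0.000247) were also lower.

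Finally, the knockout difference was set beside the same contrast in the 6 standard diet libraries. The 2 contrasts share no library, but they share the estimate of spread from 1 fit, so their calls are not separate tests. Under the standard diet 275 genes passed (1.71%). Of these, 251 passed under both diets, all in the same direction, which is 21.1% of the high fat calls and 91.3% of the standard diet calls. Of the 1189 genes called under high fat, 1100 (92.5%) had the same sign under the standard diet, against 59.9% of all genes, and log2 fold changes correlated with r = 0.544 across genes. Matn2 had log2 fold changes of 4.94 under high fat and 4.10 under the standard diet, Enpp2 3.02 and 2.81, and Ivd 2.15 and 1.99. Genes with a large high fat value and a small standard diet value were Ttyh1 (2.88 and 0.56) and Serpina7 (2.17 and −0.18). Tph1 had 9.71 and 4.91. For some raised genes the standard diet wild type libraries differed widely, with mean and SD of 15.2 and 24.6 CPM for Tph1 and 12.1 and 10.9 CPM for Cish. In HFD WT they were 1.05 and 0.208 CPM, and 3.87 and 0.858 CPM. For Enpp2 the standard diet wild type spread was small beside its mean (118 and 26.3 CPM). How this spread bears on the standard diet values was not tested. The difference between the 2 contrasts, tested as an interaction, passed for 0 of 16076 genes with edgeR (0% called, smallest adjusted p = 0.157), with 1271 genes at an unadjusted p under 0.05, and for 31 with DESeq2. A call under 1 diet alone is therefore no test of a difference between diets. Of 10 genes with the smallest interaction p, Itpr2 had log2 fold changes of −1.82 and −0.70 (unadjusted p = 0.000188) and Gfra3 of 5.16 and 3.05 (unadjusted p = 0.000121). The same tests gave Slc2a2 −1.04 and −0.48 and Prlr 1.82 and 1.36.

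**Figure D5:**
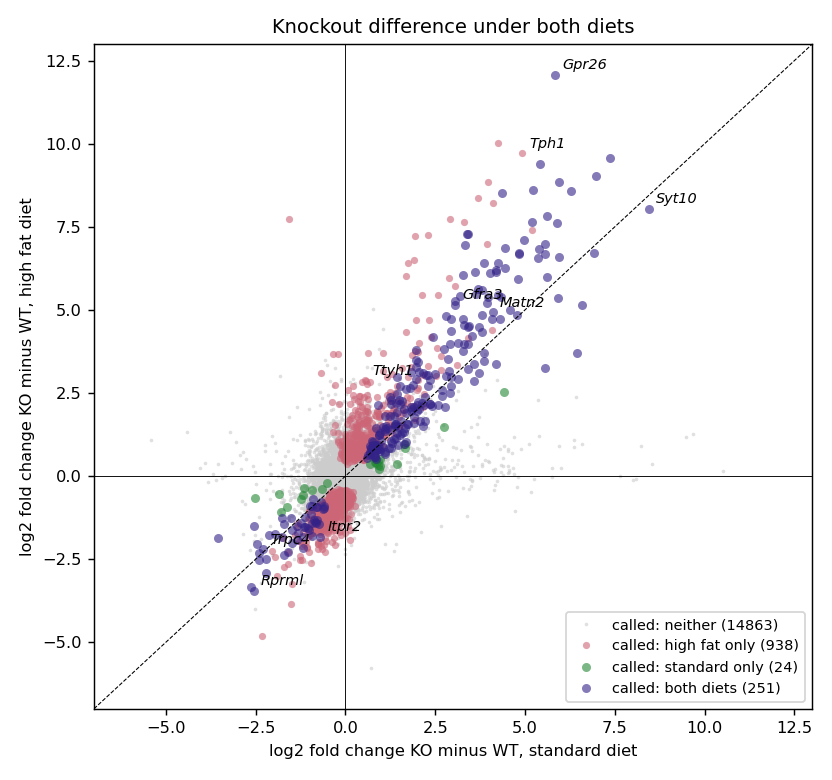
Log2 fold change of knockout against wild type for all 16076 genes tested, under the standard diet (x) and the high fat diet (y), coloured by the diets in which a gene was called. The 251 genes called under both lie in the upper right and lower left, and 938 were called under high fat alone. Of the 627 genes called higher under high fat, 557 lie above the dashed line of equality. They were chosen by their high fat value, which by itself favours that side, so this is no test of a difference between diets.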

How the data were processed

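Islet RNA libraries of the high fat diet, 3 wild type and 3 knockout, were compared, with 6 standard diet libraries in the same fit. For every library the authors deposited counts of reads by Ensembl gene together with FPKM, per the file headers. All 257939 nonzero FPKM values equalled count by length and total within a relative tolerance of 1e-05. Per the submitters' processing notes the build was mm10 and TopHat2, Cufflinks and DESeq were used, while their roles, the annotation and the strandedness were not stated there. A gene on the opposite strand can thus share reads with a named gene (besides those in the text, Dnah8 with Glo1, Nnat with Blcap, Lrrtm2 with Ctnna1, Srebf1 with Rai1, Trpm5 with Tssc4, Sirt3 with Psmd13).

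Here the counts of 54532 genes per library (29339 with a count) were filtered (filterByExpr, minimum count 10 and total 15, leaving 16076), scaled by TMM and fitted with edgeR 4.0.16's robust quasi-likelihood test (R 4.3.3), 1 mean per group, Benjamini-Hochberg over all genes, threshold 0.05. The common biological coefficient of variation was 0.307. CPM are TMM-scaled. The steps were tested on simulated data. Counting intervals (95%, exact) and the floor of 3 counts cover counting error only. DESeq2 1.42.0, limma 3.58.1 on FPKM, other filters, each library left out, length offsets (a spline with 5 degrees of freedom per library) and a replicate block were alternatives. Same-numbered high fat libraries deviated together (correlations 0.515, 0.410 and 0.336), under the standard diet not (−0.004, −0.175 and −0.234). The labels do not state a pairing, so it comes from the data. Groups of 3 were not tested for outlying libraries.

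Symbols for 54409 identifiers, coordinates and promoters came from the reference tables. Named were 10 genes of interest, the 12 largest changes per direction (mean of at least 2 CPM, no overlap, no predicted genes or pseudogenes), and up to 4 called members of each of 65 lists, or 2 where none passed. Some genes that the rule names are not reported here. The members and lists were chosen with earlier results of these data known. Chosen after their values were seen were Jak2, Stat5a, Stat5b, Ghr, Socs3, Tnfrsf11b, Neb, Tph2, Igfals, Ccnd1, Ccnd2, Ccnd3, Cdkn1b, Cdkn2c, Foxm1, Birc5, Men1, Gbp4, Gbp2, Gbp3, Gbp5, Gbp6, Gbp7, Cldn8, Sftpd, Dnah8, Rerg, Sox11, Spic, Cym, Gfra1, Rspo4, Lrp5, Nts, Pgf, Pdx1, Nkx6-1, Cacna1c, Abcc8, Kcnh2, Kcnk3, Kcnj11, Cadps, Cadps2, Ffar3, Oxtr, Ffar2, Glp1r, Gipr, Cnr1, Vipr2, Srebf2, Insig1, Hmgcs1, Ebp, Soat1, Acaca, Fasn, Elovl5, Acsl3, Phgdh, Slc7a11, Spcs1, Sec13, Gpx3, Eif4ebp1, Rptor, Tsc2, Robo1, Ptprt, Cntnap2, Magi2, Csmd2, Ank3, Ptprd, Crebbp, Dnmt3a, C1qc, Eya1, Itgb8, Epha7 and Nectin1.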

Additional observations from a re-analysis of the deposited data

How the results depend on the processing

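The count of 1189 genes called was 543 with the high fat libraries fitted alone, 2033 with the DESeq2 Wald test, and between 519 and 2899 with 1 high fat library left out (lowest without HFD KO 1, highest without HFD KO 3). It was 1414 with length offsets, and 2144 with length offsets and no HFD KO 3. The interaction, with 0 genes called, had 1 without a filter on low counts and 31 with DESeq2. The rank correlation of fold change with gene length was −0.0293 with length offsets and −0.149 without HFD KO 2. Where no cause follows from fewer libraries or the offsets themselves, the cause was not tested.

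With a replicate block for the high fat libraries, which was chosen after seeing the data, the count was 1969, and 1911 with length offsets as well. With the block in both diets it was 1291. Among the genes named by rule the block for the high fat libraries gave a call to Slc2a2 (adjusted p = 0.0152), Casr (0.0212), Cldn5 (0.0271) and Slc18a1 (0.0464) and ended that of Me1 (0.0520), and it changed no other of their calls. Of the genes chosen after their values were seen it gave a call to Nkx6-1 (0.0465) alone. Length offsets ended the calls of 10 of the 278 named genes and gave 3 (Slc2a2, Casr and Gbp7). Of 221 called genes among the 278 named by rule or after their values were seen, 106 kept their call in every alternative and 115 lost it in at least 1, while none reversed. Leaving out 1 of 3 libraries lowers the power of the test, so a lost call does not show that the genotypes were alike.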
